A study of Mus musculus with 6 samples.

Results

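The 32 genes described here encode the enzymes of cholesterol synthesis, the enzymes of fatty acid synthesis and desaturation, and the membrane proteins that control both. They were chosen by name, with earlier results of these data known. Each listed symbol was matched to the Ensembl mouse gene ID of 1 row of the deposited table, and all 32 were found among its 31227 genes. Each of them also passed the filter on low counts. Of the members, 19 belong to the sterol arm, 8 to the fatty acid arm, and 5 are regulators. Bulk RNA-seq libraries came from mouse intestinal organoids, which are epithelial structures grown from intestinal stem cells in culture, here in medium with EGF, Noggin and R-spondin1. There were 3 groups of 2 libraries: wild type (WT), Smad4-deficient (Smad4 KO), and Smad4-deficient with 0.5 nM TGF-β added (Smad4 KO+TGFb in the labels). All titles carry 48 h, and the protocol does not settle whether the treated organoids had 2 further days in TGF-β. How Smad4 was inactivated, the age of the animals and how many lines or animals stand behind the libraries are not stated in the labels.

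Cholesterol is built from acetyl-CoA through mevalonate, squalene and lanosterol, and fatty acids are built from the same acetyl-CoA by carboxylation, chain extension and desaturation. Both routes are under the sterol regulatory element-binding proteins, transcription factors that are held in the endoplasmic reticulum and released when membrane sterol is low. SREBP2, from Srebf2, acts mainly on the sterol arm, and SREBP1, from Srebf1, mainly on the fatty acid arm. Scap escorts both factors to the Golgi for cleavage, and the Insig proteins retain Scap when sterol is plentiful. In the intestinal epithelium these routes supply membranes of dividing crypt cells and the lipid that enterocytes pack into chylomicrons.

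Libraries summed to 40549534 to 50699356 units, the whole-number gene estimates in the table, or 10.1 M to 12.7 M fragments if 1 fragment adds 4 units. Expression is given as CPM, the share of a library that a gene takes scaled to a common depth, after TMM scaling, which corrects for library composition. Smad4 (chromosome 18) was at 99.4 and 109.5 CPM in WT, 21.7 and 23.1 CPM in untreated Smad4 KO and 25.2 and 29.5 CPM in the treated group, so each library stood on the side its label gives. Replicates of the members differed little in most cases, by a median of 0.056, 0.054 and 0.049 on the log2 scale for the WT, untreated and treated Smad4 KO pairs, against 0.137, 0.148 and 0.132 over all genes tested. The epithelial markers Epcam, Cdh1 and Krt8 summed to 4400 to 8180 CPM in all libraries. The fibroblast genes Col1a2, Dcn and Lum, the endothelial genes Cdh5 and Kdr, and the adipocyte genes Adipoq, Plin1 and Lep were at 0 in all 6 libraries. The other fibroblast markers, Col1a1 and Pdgfra, and the other endothelial marker, Pecam1, had low values. All 5 fibroblast markers summed to 0 to 0.479 CPM and all 3 endothelial markers to 0.229 to 0.764 CPM. The 5 leukocyte markers summed to 3.63 to 6.5 CPM. Whether replicates were separate cultures or animals is not stated, and p-values therefore measure the spread between these libraries only, which may be technical.

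Levels of different genes were compared per kilobase (kb) of exon. Scd2, a stearoyl-CoA desaturase that makes monounsaturated fatty acids, was the highest member in each group, at a mean of 660 CPM per kb in WT, 755 without and 625 with TGF-β in the Smad4-deficient groups. The WT means that followed were those of Insig1 (154 CPM per kb), Hmgcs1 (128), Cyp51 (114) and Scd1 (113). Hmgcs1 makes the precursor of mevalonate, and Cyp51 is the lanosterol demethylase. In WT the neighbours Cyp51 and Scd1 did not differ beyond their spread, and neither did Sqle (53.9) and Fdft1 (53.8). Acaca, the acetyl-CoA carboxylase that commits carbon to fatty acids, had the lowest mean at 8.18 CPM per kb, followed by Insig2 (8.47) and Scap (12.7). Acaca (8.2 and 8.15 CPM per kb) and Insig2 (7.53 and 9.41) did not differ beyond their spread in WT. The annotated exons of Acaca add up to 17074 bases over all transcripts, so its level per kb is a low estimate if most of those exons were not transcribed. Srebf2 was at 66.2 and Srebf1 at 33.7 CPM per kb in WT, and at 67.2 and 47.9 in Smad4 KO.

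**Figure D1:**
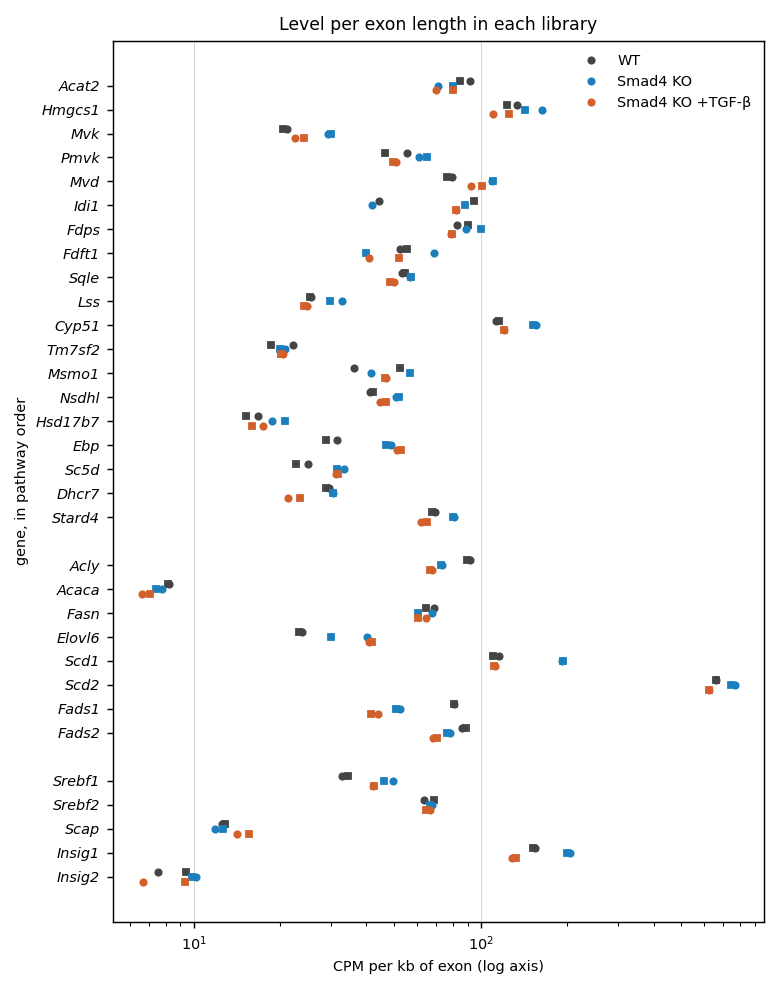
Level of each member per kb of annotated exon in each of the 6 libraries (x axis, CPM per kb, log scale; circles are replicate 1 and squares replicate 2, coloured by group), with genes in pathway order on the y axis. Scd2 stands furthest right in all groups (660, 755 and 625 CPM per kb on average) and Acaca (8.18, 7.56 and 6.85) and Insig2 (8.47, 10.0 and 8.01) furthest left, with overlapping points in WT and in the treated group.

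Promoter sequence was available from RefSeq (build GRCm38.p6) for 25 of the 32 members, as windows from 250 bases before to 50 bases after each annotated start site. The 4 motifs were searched on both strands. They were TCACNCCAC, the core of the sterol response element bound by SREBPs, CCAAT, the box bound by NF-Y, GGGCGG, the GC box bound by Sp1-type factors, and CACGTG, an E-box. NF-Y and Sp1 are known partners of SREBPs at lipid gene promoters. The NF-Y box was present in 14 of the 15 sterol arm genes with a promoter (93.3%) and the GC box in 14 of 15 (93.3%), against 41.1% and 38.2% of the 27025 genes with a promoter. Those 27025 genes were not limited to genes expressed in these libraries, whereas every member passed the filter on low counts. The shares among expressed genes were not computed. In the fatty acid arm 2 of 5 genes had an NF-Y box (40.0%) and 2 of 5 a GC box, and among the regulators 4 of 5 and 5 of 5. No promoter was available for Scd1, Scd2 and Fads1 of the fatty acid arm or for Fdps, Fdft1, Sqle and Stard4 of the sterol arm. The shares therefore do not describe the whole arms. The sterol response element core was found in 1 member, Hmgcs1, and in 1.44% of all genes, and the E-box in 5 of 25 members (20%) against 8.09%. A match is a description of the letters and not a bound site, and a promoter with no match may hold other forms of the element outside these letters or this window.

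The 6 windows printed here run from base -150 to base -1 before the start site, 5′ to 3′ along the gene, and hold no annotated exon. They are shown because Hmgcs1 carries the only sterol response element core, Mvk the most NF-Y boxes of this set, Mvd and Ebp are sterol arm genes that were higher than WT also with TGF-β, and Fasn and Acly stand for the fatty acid arm, where Acly was lower than WT with TGF-β and Fasn did not pass. Capitals mark matches to the 4 motifs on either strand, so that ATTGG is an NF-Y box and CCGCCC a GC box on the opposite strand, and in Fasn 2 overlapping NF-Y boxes form 1 capital stretch. The windows lie at chr13:119690201-119690350 (Hmgcs1, plus strand), chr5:114444119-114444268 (Mvk, plus), chr8:122443423-122443572 (Mvd, minus), chrX:8193513-8193662 (Ebp, minus), chr11:120824548-120824697 (Fasn, minus) and chr11:100528001-100528150 (Acly, minus).
Hmgcs1: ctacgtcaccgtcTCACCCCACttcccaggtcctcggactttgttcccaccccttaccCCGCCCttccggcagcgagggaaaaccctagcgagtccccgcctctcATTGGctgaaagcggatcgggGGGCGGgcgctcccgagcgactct
Mvk: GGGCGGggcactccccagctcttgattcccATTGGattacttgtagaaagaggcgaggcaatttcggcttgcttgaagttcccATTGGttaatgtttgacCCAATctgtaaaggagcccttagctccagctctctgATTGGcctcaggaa
Mvd: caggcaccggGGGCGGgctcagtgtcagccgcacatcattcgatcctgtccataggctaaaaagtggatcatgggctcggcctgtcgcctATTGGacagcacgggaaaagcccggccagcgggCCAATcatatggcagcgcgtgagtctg
Ebp: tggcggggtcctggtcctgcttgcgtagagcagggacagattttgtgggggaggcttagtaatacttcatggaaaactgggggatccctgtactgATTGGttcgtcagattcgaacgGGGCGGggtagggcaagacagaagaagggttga
Fasn: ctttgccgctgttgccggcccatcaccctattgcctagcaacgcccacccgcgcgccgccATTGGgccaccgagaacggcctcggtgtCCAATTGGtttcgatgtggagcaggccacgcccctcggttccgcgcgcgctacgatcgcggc
Acly: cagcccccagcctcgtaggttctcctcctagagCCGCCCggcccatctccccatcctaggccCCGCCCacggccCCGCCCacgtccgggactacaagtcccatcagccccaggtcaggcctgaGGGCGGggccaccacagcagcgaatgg
In these windows Mvk had 4 NF-Y boxes and 1 GC box, Mvd 2 and 1, Ebp 1 and 1, and Hmgcs1 1 and 2 beside its sterol response element core. Fasn had 3 NF-Y boxes and 0 GC boxes, whereas Acly had 0 NF-Y boxes and 4 GC boxes.

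**Figure D2:**
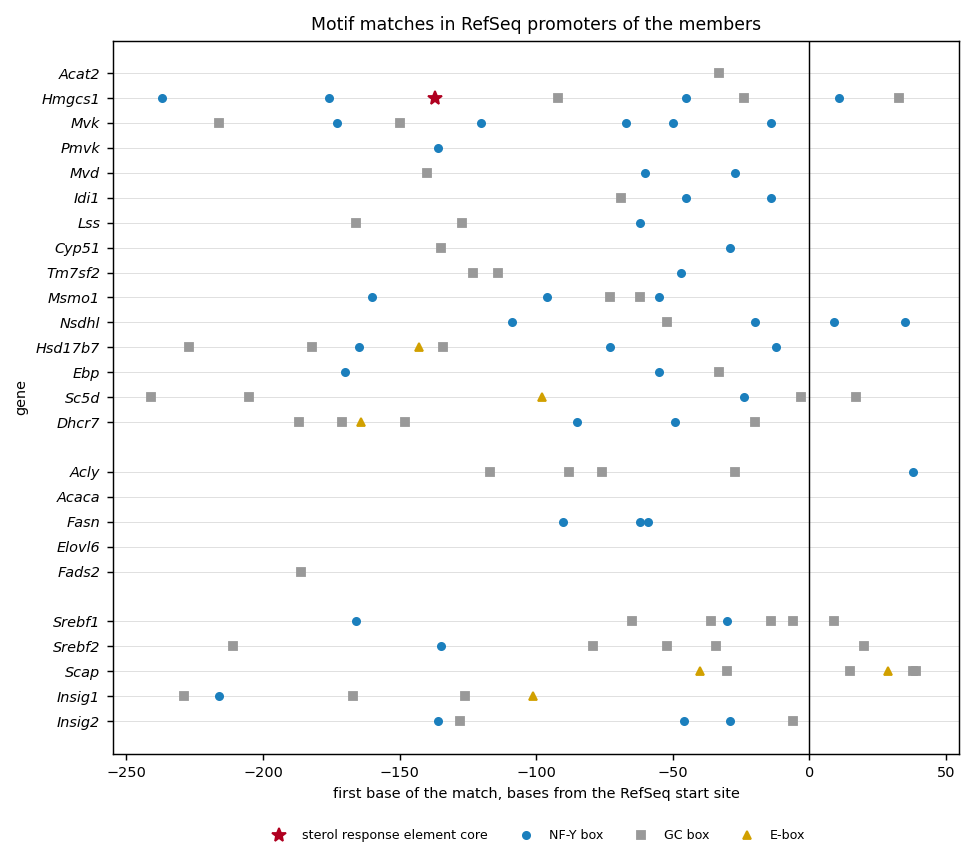
Positions of motif matches in the RefSeq promoters of 25 members (x axis, first base of the match in bases from the start site, which is the vertical line; y axis, gene, with the sterol arm, the fatty acid arm and the regulators from top to bottom). Stars are sterol response element cores, circles NF-Y boxes, squares GC boxes and triangles E-boxes; genes with several start sites carry the matches of all of them, and circles lie in 14 of the 15 sterol arm rows.

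Smad4-deficient organoids were first set against wild type, both without TGF-β. Sterol arm genes were mostly higher in Smad4 KO, by modest amounts, whereas the fatty acid arm split into genes that rose and genes that fell. Of the 32 members 18 passed (56.2%), against 30.3% of all genes tested. The members were chosen with earlier results of these data known, so this contrast is a description only. Of the 19 sterol arm genes, 10 rose and 0 fell (edgeR's quasi-likelihood test, adjusted p under 0.05 over 15503 genes), while 16.9% of all genes tested rose and 13.4% fell. At an unadjusted p under 0.05 the sterol arm counts were 11 higher and 1 lower, and with DESeq2 they were 11 and 0. The median log2 fold change of the arm was 0.25, beside -0.021 over all genes. Of the 8 fatty acid genes 3 rose and 3 fell, with a median of -0.08. The libraries of both groups did not overlap in 24 of the 32 members, against 66.7% of all genes.

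In the mevalonate segment, which runs from acetyl-CoA to farnesyl pyrophosphate, 3 of 7 genes rose. Mvd, the decarboxylase that makes isopentenyl pyrophosphate, stood at 147 and 142 CPM in WT, at 204 and 205 in untreated Smad4 KO and at 173 and 189 with TGF-β. The Smad4 KO libraries lay above all others, and Mvd was 1.41-fold higher in the untreated Smad4 KO pair than in WT (log2 fold change of 0.50 with an SE of 0.057, n = 2 libraries in each group, edgeR adjusted p = 0.00116). Mevalonate kinase, Mvk, measured 56.7 and 54.7 CPM for WT and 78.5 and 80.8 in Smad4 KO, a 1.43-fold rise (edgeR adjusted p = 0.00201). Phosphomevalonate kinase, Pmvk, rose 1.24-fold (edgeR adjusted p = 0.0493). Its call was close to the threshold: it was lost without WT replicate 2 (adjusted p = 0.157), Smad4 KO replicate 1 (0.0929) or 2 (0.183), treated replicate 1 (0.0785) or 2 (0.0776), with only the 4 libraries compared (0.0728) and with a replicate block (0.0631). Hmgcs1 did not pass at 615 and 566 CPM in WT against 754 and 654 in Smad4 KO (edgeR adjusted p = 0.0753), but it passed without Smad4 KO replicate 2 (0.0441), with no filter on low counts (0.0452) and in DESeq2 (0.0131). Fdps, the farnesyl pyrophosphate synthase, had a log2 fold change of 0.13 with an SE of 0.069 and Acat2, the cytosolic thiolase that opens the route, one of -0.23 with an SE of 0.09, and neither passed.

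Of the 3 genes of the squalene branch 1 rose, namely Lss, which closes squalene epoxide into lanosterol (276 and 274 CPM in WT, 353 and 323 in Smad4 KO, 1.23-fold, edgeR adjusted p = 0.00609). Squalene epoxidase, Sqle, a control point of the route, was at 295 and 303 CPM in WT and at 314 and 318 in untreated Smad4 KO and did not pass (edgeR adjusted p = 0.159). Of the 8 genes that turn lanosterol into cholesterol, 5 rose. Cyp51 was at 500.1 and 511 CPM in WT and at 690 and 670.4 in untreated Smad4 KO (1.35-fold, log2 fold change of 0.43 with an SE of 0.029, edgeR adjusted p = 0.000139). Ebp, the sterol isomerase (chromosome X, 8185329 to 8193512 on the minus strand, GRCm38), had the highest fold of the arm. It stood at 73.2 and 67.0 CPM in WT, at 112 and 108 in untreated Smad4 KO and at 118 and 122 with TGF-β, so that both groups of Smad4-deficient libraries lay above WT (1.57-fold in Smad4 KO, edgeR adjusted p = 0.000626). Sc5d, the sterol desaturase, rose 1.36-fold from 122 and 111 CPM to 163 and 154 CPM (edgeR adjusted p = 0.00316). Nsdhl and Hsd17b7, which take part in removing methyl groups, rose 1.23-fold and 1.24-fold (edgeR adjusted p = 0.00569 and 0.0361). Hsd17b7 did not pass without WT replicate 1 (0.0551) or 2 (0.163), without Smad4 KO replicate 2 (0.159) or with a replicate block (0.0575). Dhcr7, the last reductase of the route, did not pass, with 172 and 168 CPM in WT against 178 CPM in both Smad4 KO libraries (log2 fold change of 0.07 with an SE of 0.059). Stard4, which carries sterol between membranes, rose 1.17-fold (388 and 378 against 450.1 and 449 CPM, edgeR adjusted p = 0.00499).

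**Figure D3:**
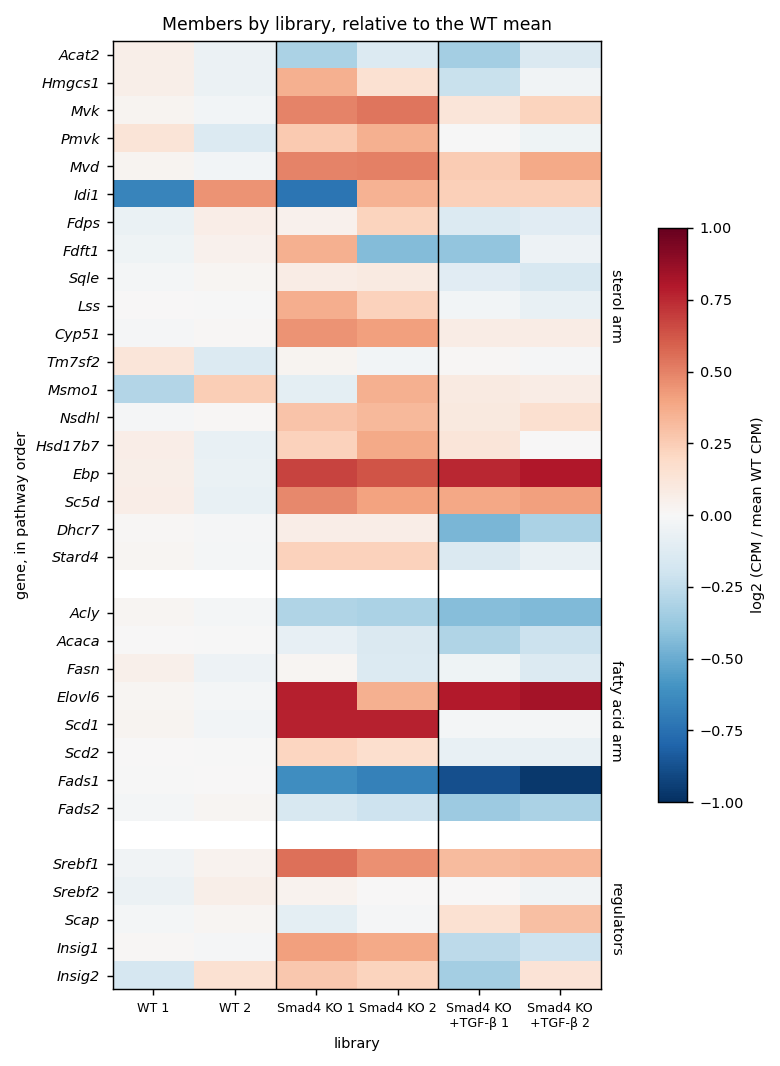
Each member in each library as the log2 ratio of its CPM to the mean of the WT libraries (colour scale from -1 to 1), with genes in pathway order on the y axis and the 6 libraries on the x axis. Most sterol arm rows are red in the Smad4 KO columns and pale in the treated columns (arm medians 0.26 and 0.32, then 0.01 and -0.01), Ebp and Elovl6 stay red with TGF-β, Fads1 is blue in all 4 Smad4-deficient libraries, and Idi1 and Msmo1 differ between replicates of WT and of Smad4 KO.

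In the fatty acid arm the members that rose were the desaturases of saturated chains and the elongase. Scd1 (chromosome 19, 44394455 to 44407879 on the minus strand, GRCm38), a stearoyl-CoA desaturase, stood at 565 and 542 CPM in WT, at 942 and 945 in untreated Smad4 KO and at 547 and 545 with TGF-β. The Smad4 KO libraries stood apart from the other 4, and Scd1 was 1.7-fold higher than in WT (log2 fold change of 0.77 with an SE of 0.029, n = 2 libraries in each group, edgeR adjusted p = 1.1e-05). Scd2 was at 3606 and 3601 CPM in WT and at 4192 and 4056 in untreated Smad4 KO, a rise of 1.14-fold (edgeR adjusted p = 0.000384). Scd1 and Scd2 are near copies, and how reads shared between them were divided is not known, although the related Scd3 and Scd4 stayed at or below 1.3 CPM. Elovl6, which extends palmitate to stearate, was at 153 and 149 CPM in WT and at 259 and 193 in untreated Smad4 KO, where the replicates differed more than in the other groups (1.5-fold, edgeR adjusted p = 0.0155). The Elovl6 call was lost when either WT library was left out (adjusted p = 0.0663 without replicate 1 and 0.0765 without replicate 2).

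The members that fell handle acetyl-CoA supply and polyunsaturated chains. Fads1 (chromosome 19, 10182888 to 10196877 on the plus strand, GRCm38), which desaturates polyunsaturated fatty acids toward arachidonate, was at 387 and 389 CPM in WT, at 252 and 244 in untreated Smad4 KO and at 211 and 199 with TGF-β. The 3 groups did not overlap, and Fads1 was 1.57-fold lower in the untreated Smad4 KO pair than in WT (log2 fold change of -0.65 with an SE of 0.044, edgeR adjusted p = 0.000134). Its neighbour Fads2, the desaturase of the preceding step, was 1.14-fold lower (284 and 293 against 258 and 250.5 CPM, edgeR adjusted p = 0.0179), a call lost without WT replicate 1 (0.0512) or 2 (0.0902) or Smad4 KO replicate 2 (0.0817). Acly, which makes cytosolic acetyl-CoA from citrate for both arms, fell 1.24-fold from 484 and 473 CPM to 388 and 384 CPM (edgeR adjusted p = 0.000701). The 2 enzymes of chain synthesis did not pass: fatty acid synthase, Fasn, was at 754 and 704 CPM in WT and 739 and 662 in untreated Smad4 KO (log2 fold change of -0.06 with an SE of 0.062), and Acaca had a log2 fold change of -0.11 with an SE of 0.056.

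Among the regulators 2 of 5 rose. Srebf1 was at 185 and 195 CPM in WT, at 279 and 260.5 in untreated Smad4 KO and at 237 and 240 CPM with TGF-β (1.42-fold in Smad4 KO, edgeR adjusted p = 0.000699). Insig1, itself a classical SREBP target as well as a brake on the pathway, was at 479 and 471 CPM in WT, at 632 and 618 in untreated Smad4 KO and at 396 and 411 with TGF-β (1.32-fold in Smad4 KO, edgeR adjusted p = 0.00032). Srebf2 had a log2 fold change of 0.02 with an SE of 0.046 and Scap one of -0.05 with an SE of 0.068. Insig2 was low, at 26.1 and 32.7 CPM in WT and 35.5 and 34.3 in untreated Smad4 KO, and did not pass (edgeR adjusted p = 0.354).

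Markers of cell types moved with these groups. Their counts in Smad4 KO against WT stand beside 16.9% of all genes tested that rose and 13.4% that fell. All 12 enterocyte markers rose in Smad4 KO, and their sum went from 4820 to 4830 CPM in WT to 15600 CPM in both Smad4 KO libraries. With TGF-β the sum was 11000 to 11100 CPM, but the markers were split. Of the 12, 9 were higher than WT there, beside 20.7% of all genes tested. Slc5a1 was lower than WT (log2 fold change of -0.329, edgeR adjusted p = 0.000296). Sis and Fabp2 did not pass (log2 fold changes of -0.038 and -0.066). Apob and Apoa1 had means of 454 and 174 CPM in WT and of 2570 and 1500 CPM with TGF-β. All 5 crypt base stem cell markers and all 5 proliferation markers fell in Smad4 KO (sums of 5270 against 2880 CPM, and of 1790 to 1830 against 1270 to 1280 CPM). The 3 Paneth cell markers all fell (sums of 2530 to 2580 against 918 to 924 CPM), and 4 of 5 enteroendocrine markers fell (814 to 827 against 336 to 349 CPM). Of the 5 goblet cell markers 2 rose, Clca1 and Zg16, and 2 fell (sums of 3810 to 3840 against 3300 to 3410 CPM). Of the 3 tuft cell markers, all low, 1 fell and 0 rose (sums of 14.9 to 16.1 against 7.02 to 9.39 CPM). With TGF-β the stem cell sum was 1560 to 1580 CPM and the proliferation sum 1200 to 1210 CPM, while the Paneth and enteroendocrine sums were 1010 to 1020 and 317 to 330 CPM. The Paneth markers differed among themselves there. Mmp7 had means of 136, 106 and 197 CPM in WT, untreated and treated Smad4 KO, whereas Lyz1 and Ang4 stayed below WT. The part of the cell type markers in the results on lipid genes was not tested. In bulk RNA fewer cells of a type and less RNA per cell cannot be told apart.

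**Figure D4:**
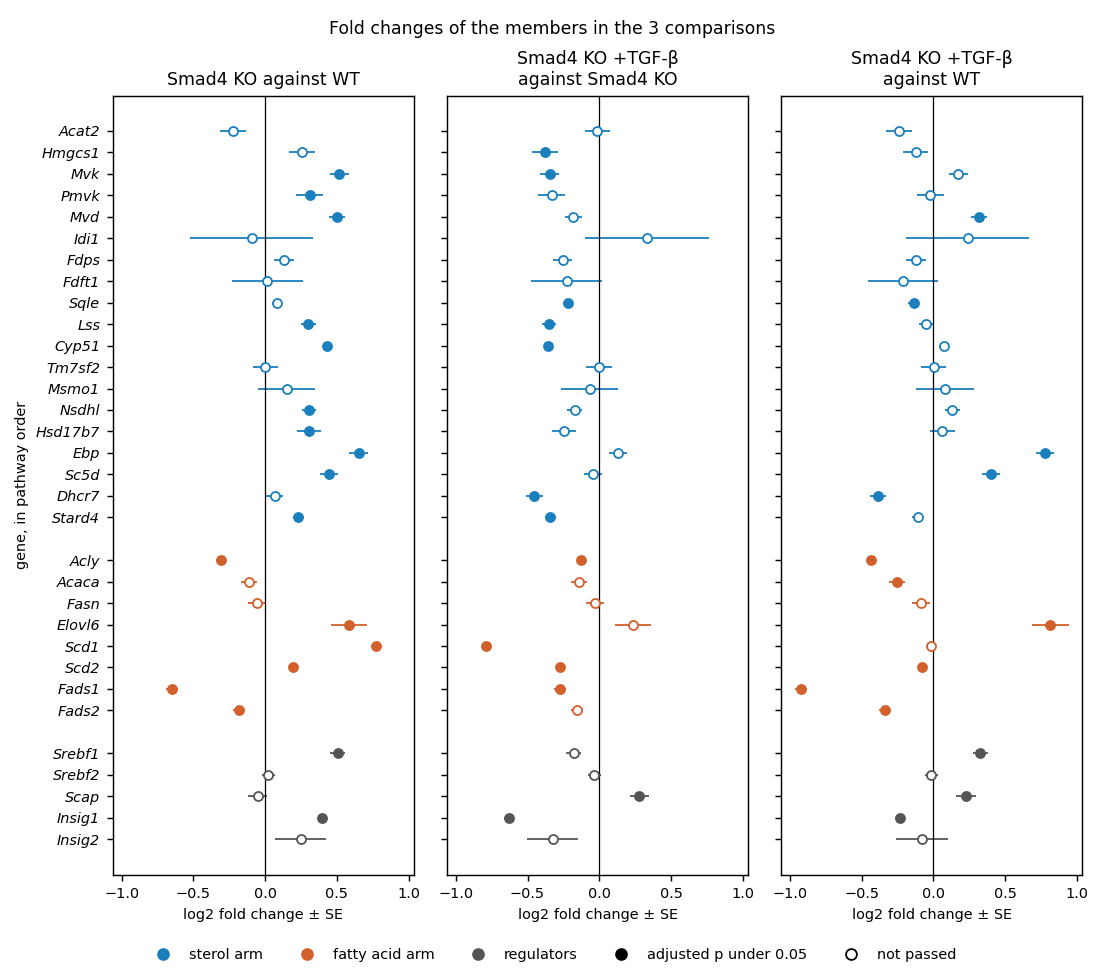
Log2 fold change of each member (x axis, ± SE derived from the edgeR F statistic) in the 3 comparisons, with genes in pathway order on the y axis. Filled points passed at an adjusted p under 0.05. The left and middle panels share the Smad4 KO libraries and so are not independent; in the left panel 10 of 19 sterol arm genes are filled to the right of 0 and in the middle panel 7 of 19 are filled to the left.

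The treated organoids were then set against untreated Smad4 KO, which asks what TGF-β altered where Smad4 is deficient. Each passing gene of either arm was lower with TGF-β. In all, 13 of 32 members passed (40.6%), against 16.3% of all genes tested, a description with the same limit on how the members were chosen. In the sterol arm 7 of 19 genes fell and 0 rose, in the fatty acid arm 4 of 8 fell and 0 rose, and of the regulators Insig1 fell and Scap rose, whereas 8.48% of all genes fell and 7.78% rose (edgeR's quasi-likelihood test). At an unadjusted p under 0.05, 12 sterol and 6 fatty acid genes were lower and 0 of either higher, and with DESeq2 10 and 5 were lower and 0 higher. The median log2 fold change was -0.23 in the sterol arm and -0.15 in the fatty acid arm, beside -0.008 over all genes. The libraries did not overlap in 24 of 32 members, against 56.9% of all genes. This comparison uses the Smad4 KO libraries of the preceding one, so the changes of a gene in both are not independent.

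The sterol genes that fell span the route. Hmgcs1 (506 and 577 CPM with TGF-β), Mvk (60.4 and 65.0 CPM), Sqle (276 and 267 CPM), Lss (269 and 262 CPM), Cyp51 (532 CPM in both libraries), Dhcr7 (124 and 136 CPM) and Stard4 (347 and 364 CPM) were 1.16-fold to 1.37-fold lower than in Smad4 KO. Cyp51 was 1.28-fold lower (log2 fold change of -0.35 with an SE of 0.029, edgeR adjusted p = 0.000571). Dhcr7, which had not differed between Smad4 KO and WT, had the largest fall of the arm, 1.37-fold (log2 fold change of -0.45 with an SE of 0.059, edgeR adjusted p = 0.00365). Lss and Stard4 were 1.28-fold and 1.27-fold lower (edgeR adjusted p = 0.00561 and 0.00185). The calls of Hmgcs1, Mvk and Sqle were lost without single libraries. Hmgcs1 (edgeR adjusted p = 0.0331) did not pass without WT replicate 1 (0.0522), Smad4 KO replicate 1 (0.137) or treated replicate 1 (0.146), nor with a replicate block (0.0584). Mvk (0.0168) did not pass without Smad4 KO replicate 1 (0.0575) or 2 (0.0825) or treated replicate 1 (0.102), and Sqle (0.0111) did not pass without Smad4 KO replicate 2 (0.0578) or treated replicate 2 (0.0692). Other sterol genes missed the threshold and passed under some alternatives. Pmvk (87.0 and 84.8 CPM with TGF-β, edgeR adjusted p = 0.0618) passed without WT replicate 1 (0.0248) or 2 (0.0223) and in 3 further alternatives (0.0145 to 0.0449). Fdps (331 and 335 CPM, edgeR adjusted p = 0.054) passed without Smad4 KO replicate 1 (0.0288), with a replicate block (0.0296) and in 3 further alternatives (0.00723 to 0.0446). Nsdhl (edgeR adjusted p = 0.0703) passed in DESeq2 alone (0.0385). Ebp and Sc5d had log2 fold changes of 0.13 with an SE of 0.063 and -0.04 ± 0.064 SE and did not pass. Mvd had one of -0.18 with an SE of 0.057 (edgeR adjusted p = 0.0852).

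Scd1 had the largest fall of all members, 1.73-fold (log2 fold change of -0.79 with an SE of 0.029, n = 2 libraries in each group, edgeR adjusted p = 3.08e-05). Scd2 was 1.21-fold lower (3416 CPM in both treated libraries, edgeR adjusted p = 0.000187), and Fads1 was 1.21-fold lower (edgeR adjusted p = 0.00806). Fads2 (225 and 232 CPM, edgeR adjusted p = 0.0513) passed in DESeq2 (0.0193) and with values divided by 4 (0.0472). Acly fell 1.09-fold (356 and 351 CPM, edgeR adjusted p = 0.0422), a call that was lost in each fit without a library (adjusted p = 0.0597 to 0.166) and in 4 other alternatives (0.0508 to 0.0768). Elovl6 was at 262 and 269 CPM with TGF-β and did not pass (edgeR adjusted p = 0.283), but was higher without Smad4 KO replicate 1 (log2 fold change 0.46, adjusted p = 0.00781). Insig1 was 1.55-fold lower (log2 fold change of -0.63 with an SE of 0.033, edgeR adjusted p = 0.000103). Scap was 1.21-fold higher (105 and 116 CPM against 88.5 and 93.9 CPM, edgeR adjusted p = 0.0389), with no call in any fit without a library (adjusted p = 0.0508 to 0.201) or with only the 4 libraries compared (0.0614). Srebf1 and Srebf2 had log2 fold changes of -0.18 with an SE of 0.051 and -0.04 ± 0.046 SE, and only Srebf1 passed in DESeq2 (0.0259). Among the 12 enterocyte markers 10 fell and 1 rose in this comparison, beside 8.48% and 7.78% of all genes tested. Among 5 goblet cell markers 5 fell (sums of 3300 to 3410 against 1710 CPM). The part of these markers in the values of the members was not tested.

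**Figure D5:**
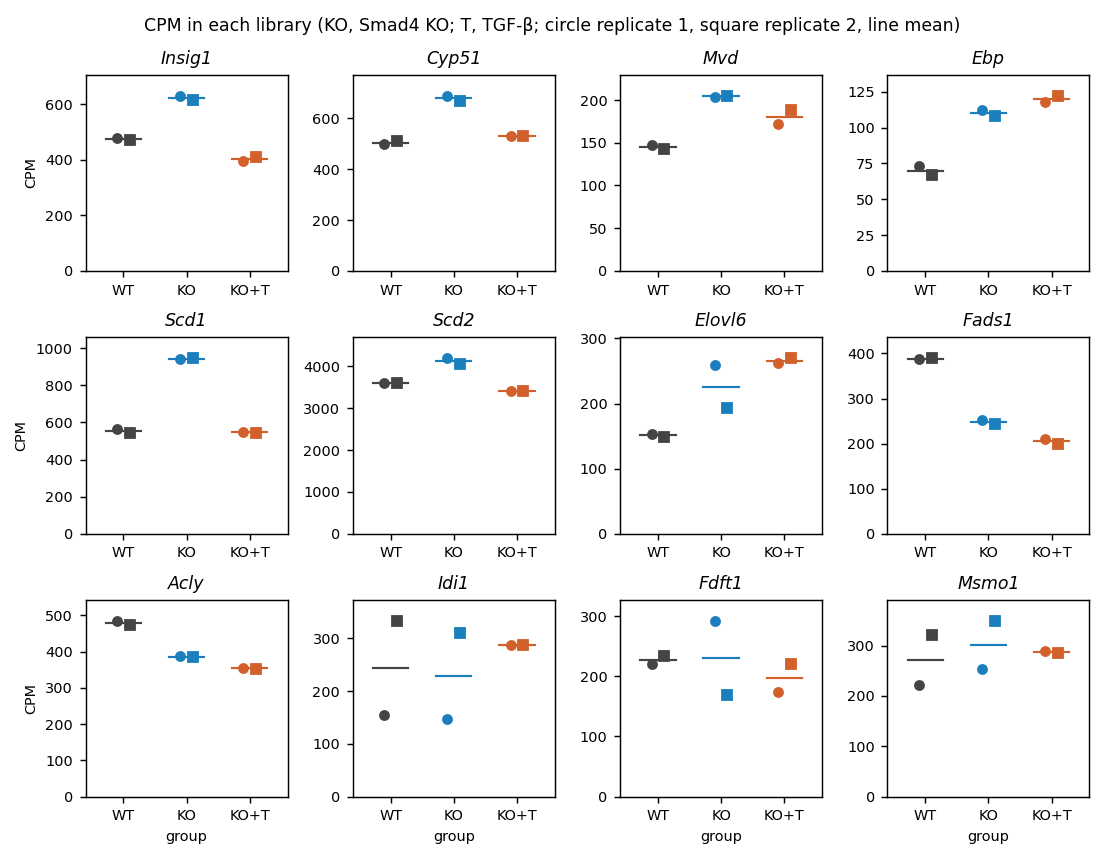
CPM of 12 members in each library (y axis from 0; circle, replicate 1; square, replicate 2; line, mean; KO is Smad4 KO and T is TGF-β on the x axis). Scd1 rises to 942 and 945 CPM in Smad4 KO and returns to 547 and 545 CPM with TGF-β, Fads1 and Acly descend from WT through Smad4 KO to the treated group, Ebp stays high in both Smad4-deficient groups, and the replicates of Idi1 differ in WT and Smad4 KO.

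The treated organoids against WT show which differences from WT were present in the treated organoids. Of the 32 members 14 passed (43.8%), against 39.7% of all genes tested, so the share was near the background. The sterol arm median was 0.001 in log2 fold change, beside -0.021 over all genes, with 3 genes higher and 2 lower of 19, whereas the fatty acid arm had a median of -0.17 with 1 gene higher and 5 lower of 8 (edgeR). Over all genes 20.7% were higher and 19% lower, and the libraries did not overlap in 22 of 32 members, against 72.3% of all genes. The sterol genes higher than in WT were Ebp (1.71-fold, edgeR adjusted p = 0.000184), Sc5d (152 and 155 CPM, 1.32-fold, edgeR adjusted p = 0.00345) and Mvd (1.25-fold, edgeR adjusted p = 0.00532). Dhcr7 was 1.31-fold lower (edgeR adjusted p = 0.00285) and Sqle 1.1-fold lower (edgeR adjusted p = 0.03), and Sqle did not pass without WT replicate 1 (0.0651) or 2 (0.129), treated replicate 1 (0.0685) or 2 (0.153), or with a replicate block (0.0597). DESeq2 called 8 sterol genes, 5 higher and 3 lower, which added Nsdhl (0.0423), Acat2 (0.048) and, just under the threshold, Cyp51.

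Fads1 was 1.89-fold lower than WT in treated organoids (log2 fold change of -0.92 with an SE of 0.044, n = 2 libraries in each group, edgeR adjusted p = 2.05e-05) and Fads2 1.26-fold lower (225 and 232 CPM, edgeR adjusted p = 0.00106). Acly was 1.35-fold lower (edgeR adjusted p = 0.000107). Acaca was 1.19-fold lower (140.1 and 139 against 113 and 121 CPM, edgeR adjusted p = 0.0122) and did not pass without WT replicate 1 (0.0608) or treated replicate 1 (0.0852). Scd2 was 1.05-fold lower (edgeR adjusted p = 0.0124), a difference that did not pass in DESeq2 (0.0912) or without WT replicate 1 (0.0606), WT replicate 2 (0.0501) or treated replicate 1 (0.0577). Elovl6 was 1.76-fold higher (log2 fold change of 0.82 with an SE of 0.126, edgeR adjusted p = 0.00298). Scd1 did not pass (log2 fold change of -0.02 with an SE of 0.029, edgeR adjusted p = 0.631). Of the regulators, Srebf1 was 1.25-fold and Scap 1.17-fold higher, and Insig1 1.18-fold lower (edgeR adjusted p = 0.00301, 0.0394 and 0.00192). Scap did not pass without WT replicate 1 (0.155) or 2 (0.104), Smad4 KO replicate 2 (0.0512) or treated replicate 2 (0.201).

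The arms can be read side by side. Relative to the WT mean, the sterol arm median on the log2 scale was 0.26 and 0.32 for untreated Smad4-deficient libraries, and 0.01 and -0.01 for treated ones. The fatty acid arm median stood at -0.03 and -0.14, and then at -0.19 and -0.17. In Smad4 KO against WT the sterol arm ran from -0.23 to 0.65 in log2 fold change, with 17 of 19 values above 0. The median over all genes tested was -0.021. Of the 17, the values of Tm7sf2 (0.002 with an SE of 0.089), Fdft1 (0.015, SE 0.245) and Msmo1 (0.15, SE 0.2) were smaller than their SE. These values changed sign when single libraries were left out. The fatty acid arm ran from -0.65 to 0.77, with 3 of 8 above 0. With the regulators placed in the arms, Srebf1 with the fatty acid genes and the others with the sterol genes, the fatty acid medians moved to -0.06 in this comparison and -0.09 for treated organoids against WT. No test was run between the arms.

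Several members carried values that the replicates or the annotation make uncertain. Idi1, the isomerase that makes dimethylallyl pyrophosphate, was at 155 and 333 CPM in WT, at 147 and 310 CPM in untreated Smad4 KO and at 288 CPM in both treated libraries. Replicate 1 was about as far below replicate 2 in both untreated groups, and the groups overlapped. Msmo1, the sterol methyl oxidase, was lower in replicate 1 as well (222 and 322 CPM in WT, 254 and 348 in Smad4 KO, 288 and 286 with TGF-β). Fdft1, the squalene synthase, was at 221 and 234 CPM in WT, 292 and 168 CPM in untreated Smad4 KO and 173 and 220 CPM with TGF-β. For Fdft1 18.3% of the exon bases overlap Ctsb on the opposite strand, which is expressed at 464 to 605 CPM, and the strand setting of the counts is not known. None of these 3 genes passed in any comparison, and the SE of their log2 fold changes was 0.2 to 0.43. Acat2 has a near copy, Acat3, which was at 28.0 and 0.251 CPM in WT, 0.204 and 1.14 CPM in untreated Smad4 KO and 15.0 and 19.9 CPM with TGF-β, so reads may be divided between them. For Fdps 26.7% of exon bases overlap Gm43738 on the same strand, which was at 0 CPM in 5 libraries and at 0.668 CPM in WT replicate 1, for Scap 13.2% overlap the antisense-strand 5830462I19Rik, and for Tm7sf2 12.1% overlap Vps51 (21.5 to 49.1 CPM). Tm7sf2, a sterol reductase, had means of 89.6, 89.7 and 89.7 CPM in WT, Smad4 KO and treated organoids.

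Other genes of lipid synthesis, listed by role, were read from the same fit. These lists too were chosen with earlier results of these data known. Over all genes tested 16.9% rose and 13.4% fell in Smad4 KO against WT, and 7.78% rose and 8.48% fell when TGF-β was added, and the counts of these short lists stand beside those shares. Of 10 genes of SREBP processing and turnover, 4 rose and 2 fell in Smad4 KO against WT, and 0 rose and 3 fell when TGF-β was added. Erlin2, a partner of Erlin1, and Syvn1, a ubiquitin ligase of the endoplasmic reticulum, were among those that rose (152, 183 and 180 CPM and 53.4, 69.0 and 78.7 CPM on average in WT, untreated and treated Smad4 KO, edgeR adjusted p = 0.00402 and 0.0128 for Smad4 KO against WT). The genes that fell with TGF-β were Erlin1, which helps degrade sterol-regulated proteins (54.5, 69.7 and 44.1 CPM on average in WT, Smad4 KO and treated organoids, edgeR adjusted p = 0.00507), Pgrmc1 and Tmem97 (165, 143 and 97.0 CPM, edgeR adjusted p = 0.000649). Of 7 tested genes of acetyl-CoA and NADPH supply, 5 rose and 2 fell in Smad4 KO. Malic enzyme, Me1, had means of 48.4, 174 and 210 CPM, and Pgd and G6pdx of the pentose phosphate route had 379, 727 and 769 CPM and 108, 170 and 217 CPM. These NADPH-producing genes were 3.6-fold, 1.92-fold and 1.58-fold higher in Smad4 KO than in WT (edgeR adjusted p = 3.76e-06, 6.28e-06 and 0.000119), while Slc25a1, which exports citrate, and Acss2, which activates acetate, fell in Smad4 KO and again with TGF-β (369, 308 and 257 CPM, and 216, 181 and 103 CPM). Slc25a1 was named after its values were seen. Mlxipl, the glucose-responsive lipogenic factor ChREBP, had means of 216, 283 and 168 CPM, with passing changes in all 3 comparisons (edgeR adjusted p = 0.00138, 0.000176 and 0.00126).

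Of 10 genes of triglyceride and phospholipid synthesis, 7 rose and 1 fell in Smad4 KO against WT, and 1 rose and 3 fell with TGF-β against untreated Smad4 KO. The 1 gene that fell in Smad4 KO and the 1 that rose with TGF-β are a share of 10 near the 13.4% and 7.78% of all genes. Dgat2 and Mogat2, which act in triglyceride synthesis, had means of 39.2, 116 and 141 CPM and of 51.7, 127 and 82.8 CPM. Pcyt2, of phosphatidylethanolamine synthesis, rose in Smad4 KO and fell with TGF-β (213, 314 and 248 CPM, edgeR adjusted p = 0.000321 and 0.0043). Gpam, which starts glycerolipid synthesis, fell in both steps (58.8, 45.5 and 26.8 CPM, edgeR adjusted p = 0.0208 and 0.00222). Of 8 further genes of elongation and desaturation, with acetyl-CoA carboxylase 2, 1 rose and 3 fell in Smad4 KO, and 0 rose and 1, Tecr, fell with TGF-β (202, 203 and 152 CPM, edgeR adjusted p = 0.00374). That share with TGF-β, 12.5%, is below the 16.3% of all genes that passed. Acacb, the second acetyl-CoA carboxylase, which restrains fatty acid oxidation, was at 19.9 and 17.8 CPM in WT, 5.04 and 2.18 CPM in untreated Smad4 KO and 3.96 and 2.03 CPM with TGF-β. It was low in all 4 Smad4-deficient libraries, 5.21-fold below WT in the untreated pair (log2 fold change of -2.38, edgeR adjusted p = 0.00938) and 6.28-fold below WT in the treated pair (log2 fold change of -2.65, edgeR adjusted p = 0.00473). The elongase Elovl7 rose 1.24-fold and the elongase Elovl5 fell 1.14-fold in Smad4 KO (edgeR adjusted p = 0.0233 and 0.025). Of 8 genes of sterol export and LXR, the nuclear receptor of oxidised sterols, 4 rose and 0 fell in Smad4 KO, beside 16.9% and 13.4% of all genes tested. Lpcat3, which remodels phospholipids, was among those that rose (210, 334 and 281 CPM, edgeR adjusted p = 0.00177). When TGF-β was added 2 rose and 2 fell, beside 7.78% and 8.48% of all genes tested. Those that rose were Abcg1 (0.618, 1.56 and 6.15 CPM) and Npc1, which releases cholesterol from lysosomes (33.5, 31.1 and 50.2 CPM). Those that fell were the LXR gene Nr1h3 (10.5, 25.8 and 17.1 CPM) and Soat2, which esterifies cholesterol (39.6, 64.9 and 44.3 CPM).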

How the data were processed

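Gene expression was measured by bulk RNA-seq in 6 organoid libraries, grouped by title. The authors deposited estimated counts per Ensembl gene as whole numbers. The tools named in the submitters' processing notes are HISAT2 2.1.0, FastQC 0.11.9, StringTie 1.3.3b and SAMtools 1.9, on GRCm38 (mm10). No source names the annotation release, the strand setting or the conversion to whole numbers. Because 42.3% of values between 1 and 24 were multiples of 4, 1 fragment was taken to add about 4 units, which is an inference. StringTie divides fragments between overlapping transcripts.

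The values were used as deposited. Of 31227 genes, 15503 passed filterByExpr. After TMM scaling, edgeR 4.0.16 (R 4.3.3, glmQLFit and glmQLFTest, 2-sided) was fitted to the 6 libraries by group alone, and a gene passed when its Benjamini-Hochberg adjusted p over all genes tested was under 0.05. The SE of a log2 fold change was calculated as its absolute value divided by the square root of the F statistic of the edgeR test. Alternatives were DESeq2 1.42.0, RLE size factors, no filter, only the 4 libraries compared, a replicate block, values divided by 4, the regulators placed in the arms, and each library left out. The fit was also run on simulated counts, whose changes were larger than most changes of the members. That run therefore does not measure how well such small changes are recovered. Positions, symbols and exon lengths come from GENCODE vM21 (GRCm38). Every member is named. Of each other list, the called genes with the 3 smallest adjusted p per comparison could be named. The members and lists were chosen with earlier results of these data known.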

Additional observations from a re-analysis of the deposited data

How the results depend on the processing

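No called member changed direction under any alternative. Of the members called, 14 of 18 (Smad4 KO against WT), 8 of 13 (treated against Smad4 KO) and 10 of 14 (treated against WT) passed under every alternative; the others are given beside their results.

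The replicate numbers did not pair the libraries by the rule used, a correlation over 0.1 in every pair (correlations of same-numbered deviations of 0.001, 0.014 and 0.012 over all genes, and of 0.655 for WT with Smad4 KO, 0.104 for WT with treated and -0.292 for Smad4 KO with treated over the 32 members), and with a replicate block 4184, 2153 and 5667 genes passed in place of 4704, 2521 and 6155. Without a library the treated against Smad4 KO count ranged from 1504 to 2304, and 1 in place of 2 regulators passed there in each such fit and with only the 4 libraries compared. DESeq2 called 8 in place of 5 sterol genes in treated against WT. The fatty acid median ranged without a library from -0.14 to -0.030 (Smad4 KO against WT), -0.19 to -0.13 (treated against Smad4 KO) and -0.20 to -0.16 (treated against WT), and with regulators in the arms it was -0.056 and -0.088 in the first and last.

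Log2 fold changes of uncalled members changed sign as follows, and the cause was not tested. In Smad4 KO against WT the ranges without a library were -0.73 to 0.56 for Idi1, -0.43 to 0.36 for Fdft1 (-0.002 with a replicate block), -0.12 to 0.14 for Tm7sf2, -0.095 to 0.44 for Msmo1, -0.14 to 0.020 for Fasn and -0.034 to 0.083 for Srebf2. In treated against Smad4 KO they were -0.12 to 0.084 for Acat2, -0.11 to 0.97 for Idi1, -0.57 to 0.22 for Fdft1, -0.028 to 0.028 for Tm7sf2, -0.28 to 0.18 for Msmo1 and -0.11 to 0.050 for Fasn. Tm7sf2 was also 0.008 with DESeq2 or RLE size factors and 0.003 with only the 4 libraries compared or values divided by 4. In treated against WT they were -0.15 to 0.12 for Pmvk, -0.21 to 0.90 for Idi1, -0.12 to 0.14 for Tm7sf2, -0.16 to 0.37 for Msmo1, -0.004 to 0.14 for Hsd17b7, -0.049 to 0.014 for Scd1, -0.070 to 0.048 for Srebf2 and -0.34 to 0.15 for Insig2.

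With 2 libraries a group, small changes near the threshold depend on single libraries.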
